A study of Mus musculus with 6 samples.

Results

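Hand1, Cdx2, Gata3 and Tfap2a, transcription factors of trophoblast and surface ectoderm, were lower in mouse embryonic stem cells (mESCs) kept with LIF or OSM than in mESCs kept without either cytokine. Tfap2c was lower by a smaller amount, and Gata2 did not differ beyond the spread of its libraries. The 7 factors considered were taken by gene symbol: Cdx2, Elf5, Tfap2c, Tfap2a, Gata2, Gata3 and Hand1. Of these, 6 had a row among the 28584 gene symbols of the table, and Elf5 was not analysed here. The 6 also passed the filter of at least 1 TPM (reads divided by gene length and scaled to a common total in each library) in at least 2 libraries, as did 18556 genes in all. Cdx2 and Hand1 passed it through the -LIF libraries alone, and only Tfap2c and Gata2 reached 1 TPM in all 6 libraries.

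All groups came from mESCs of the C57BL6/129S6 strain, which were grown on mitomycin C-inactivated mouse embryonic fibroblast (MEF) feeders and then moved to one of 3 media with the same serum-containing base. LIF-ESCs received LIF at 1000 U/mL, OSM-ESCs received OSM (oncostatin M) in place of LIF, and -LIF-ESCs received neither. RNA was taken at passage 10 in these media, and each group has 2 libraries. The labels name 1 mESC derivation for all groups, so the libraries do not sample different lines, and the labels do not say whether the 2 libraries of a group came from separate cultures. The study calls them biological replicates. The p-values measure the spread between these libraries. The extraction label names ovaries while the cell type and source labels name embryonic stem cells. Pou5f1, a defining gene of ESCs, was between 540 and 551 TPM in -LIF-ESCs and between 1150 and 1190 TPM in the other 4 libraries.

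In the early embryo, Cdx2 sets the trophectoderm apart from the inner cell mass, downstream of Tead4. Gata3, Tfap2c and Eomes act beside it, Elf5 holds trophoblast stem cells in their lineage, and Hand1 is needed for trophoblast giant cells. Tfap2a, Tfap2c, Gata2 and Gata3 also work in surface ectoderm, the layer that forms epidermis and the lens and ear placodes. Several of the factors act elsewhere too: Cdx2 in the posterior embryo and gut, Hand1 in lateral and extraembryonic mesoderm, Gata2 in blood progenitors, Tfap2a in neural crest and Tfap2c in germ cells. Embryonic stem cells come from the inner cell mass and seldom enter trophoblast while they stay pluripotent. LIF and OSM are related cytokines that signal through gp130 to Stat3.

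The sequences just before a RefSeq start are shown here for 3 of the factors that fell with both cytokines. They are given because AP-2 and caudal-type factors are among the 7 and the motif search included their letters. Of the 7 symbols, Cdx2, Elf5, Tfap2a, Gata2 and Gata3 were matched in the RefSeq promoter table of GRCm38.p6, and Tfap2c and Hand1 were not. The windows hold the 250 bases before a RefSeq start, read on the strand of the gene, with motif matches in capitals. Cdx2 is read from chr5:147307250-147307499, Gata3 from chr2:9878601-9878850 and Tfap2a from chr13:40734921-40735170, all on the minus strand.
Cdx2: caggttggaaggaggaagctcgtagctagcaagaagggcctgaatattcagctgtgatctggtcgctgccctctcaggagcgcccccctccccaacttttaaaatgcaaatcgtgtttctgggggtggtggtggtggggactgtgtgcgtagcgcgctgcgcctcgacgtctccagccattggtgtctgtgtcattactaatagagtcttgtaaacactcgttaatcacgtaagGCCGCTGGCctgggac
Gata3: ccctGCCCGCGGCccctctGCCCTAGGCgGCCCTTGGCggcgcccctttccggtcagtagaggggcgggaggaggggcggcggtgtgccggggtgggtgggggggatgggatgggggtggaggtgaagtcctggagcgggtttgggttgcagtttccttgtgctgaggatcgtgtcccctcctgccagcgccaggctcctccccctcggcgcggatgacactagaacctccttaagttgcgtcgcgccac
Tfap2a: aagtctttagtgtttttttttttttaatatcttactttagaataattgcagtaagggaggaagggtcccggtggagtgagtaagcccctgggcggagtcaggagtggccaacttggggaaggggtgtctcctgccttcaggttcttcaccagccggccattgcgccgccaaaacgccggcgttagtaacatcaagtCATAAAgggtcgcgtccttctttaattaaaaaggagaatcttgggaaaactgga
Both strands were searched for 5 motifs. TTCNNNGAA stood for sites of STAT factors and GCCNNNGGC for AP-2 factors. AGATAA was searched for GATA-binding proteins, GGAATG for Tead4 and its relatives (TEAD), and TTTATG for caudal-type factors (Cdx). Positions are counted from the start, with -1 the last base of the window. The capitals in Cdx2 mark 1 AP-2 match, GCCGCTGGC, whose first base is at -16. The capitals in Gata3 mark 3 AP-2 matches with first bases at -246, -231 and -221, and the capitals in Tfap2a mark 1 Cdx match on the reverse strand with its first base at -54. Among all 32851 windows of the table, 13.7% held an AP-2 match, 10.8% a Cdx match, 12.6% a TEAD match, 9.99% a GATA match and 7.02% a STAT match. None of the 3 windows held the letters of STAT, GATA or TEAD. Matches were not particular to the factors that fell. Gata2, which did not pass the test, had an AP-2 match at -222 and a TEAD match at -120 before 1 of its 2 starts and none before the other. The second start of Tfap2a had none of the 5 motifs, and Elf5 had a TEAD match at -173 of 1 start and a Cdx match at -37 of the other. A match is a run of letters only, and TPM per gene does not separate the starts of Tfap2a, which has 2 in the RefSeq table.

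The gene models of GENCODE M21 on GRCm38 place Hand1 (ENSMUSG00000037335.13) on chr11:57828705-57832818, Cdx2 (ENSMUSG00000029646.3) on chr5:147300805-147307270, Gata3 (ENSMUSG00000015619.10) on chr2:9857078-9890034 and Tfap2a (ENSMUSG00000021359.16) on chr13:40715302-40738376, all on the minus strand. Tfap2c (ENSMUSG00000028640.11) lies on chr2:172549593-172558622 and Gata2 (ENSMUSG00000015053.14) on chr6:88193891-88207032, both on the plus strand. The windows of Gata3 and Tfap2a shown above lie inside these gene spans, and the Cdx2 window reaches into the span of Cdx2. Antisense genes share exon bases with 2 of the factors. Gm13256 shares 155 bases with the 3978 exon bases of Gata3, and Gm47061, Gm26688 and Gm47067 share 265, 380 and 73 bases with the 4903 exon bases of Tfap2a. The protein-coding gene 9230102O04Rik, on the same strand as Gata3, shares 77 exon bases with it and has no row. The strand setting of the counting is not given in the sources used here, so reads in the shared bases cannot be assigned. Gm13256 was at 6.11 and 7.23 TPM in -LIF-ESCs, 0.615 and 1.49 TPM in LIF-ESCs and 1.71 and 2.54 TPM with OSM, and its part in the Gata3 values was not tested. Gm47061 was at 1.93 and 1.88 TPM in -LIF-ESCs and between 0.182 and 0.635 TPM in the other libraries. Gm26688 was at 1.3 and 1.23 TPM against at most 0.136 TPM, and Gm47067 was at most 0.123 TPM in any library. The part of these antisense genes in the Tfap2a values was not tested.

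Hand1, a basic helix-loop-helix factor of trophoblast giant cells and mesoderm, had the largest fall of the 6. It was at 26.3 and 28.8 TPM in the 2 -LIF libraries, 0.48 and 0.333 TPM in the LIF libraries and 0.198 and 0.0826 TPM in the OSM libraries. Both -LIF libraries were far above the other 4, and the OSM libraries were the lowest. These levels rest on 594 and 535 reads without cytokine against 9 and 6 with LIF and 4 and 2 with OSM, as recovered from the TPM values and exon lengths. In reads, Hand1 was 67.1-fold lower in LIF-ESCs (95% counting interval 40.5 to 120) and 203-fold lower in OSM-ESCs (92.9 to 554) than in -LIF-ESCs. The OSM fold was 332 without the first OSM library. These intervals, like the ones given for reads below, are exact binomial ones and cover counting error only.

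Cdx2, the caudal-type homeodomain factor of trophectoderm, was at 4.57 and 3.66 TPM without cytokine, 0.236 and 0.049 TPM with LIF and 0.657 and 0.693 TPM with OSM. The 3 groups did not overlap, with the LIF libraries lowest. The LIF level rests on 5 reads and 1 read, against 117 and 77 reads without cytokine and 15 and 19 reads with OSM. Read counts put Cdx2 28.8-fold lower in LIF-ESCs (13.0 to 79.6) and 6.15-fold lower in OSM-ESCs (4.26 to 9.13) than in -LIF-ESCs. The LIF fold was 84.8 without the first LIF library, on 1 LIF read, and 17.6 without the second, on 5. With so few reads, spread between the LIF libraries cannot be told from counting error.

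Gata3, a zinc finger factor of trophectoderm that also works in skin and T cells, was at 4.29 and 4.84 TPM without cytokine, 0.991 and 1.31 TPM with LIF and 1.82 and 1.74 TPM with OSM. Tfap2a, an AP-2 factor of surface ectoderm and neural crest, was at 3.89 and 4.41 TPM, 0.891 and 0.678 TPM, and 1.41 and 1.28 TPM in the same order. For both genes the -LIF libraries were the highest, the OSM libraries were in between and the LIF libraries were the lowest, with no overlap. In reads, Gata3 was 3.95-fold lower with LIF (3.11 to 5.07) and 2.55-fold lower with OSM (2.11 to 3.10). Tfap2a was 5.24-fold lower with LIF (4.07 to 6.84) and 3.08-fold lower with OSM (2.54 to 3.74).

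Tfap2c, the AP-2 factor shared by trophoblast and germ cells, had the highest level of the 6 in every group. It was at 35.1 and 36.1 TPM without cytokine, 23.8 and 24.1 TPM with LIF and 25 and 24.7 TPM with OSM. The -LIF libraries stood above the other 4, which differed little among themselves. With 800 to 1464 reads per library, the fall was 1.49-fold with LIF (1.40 to 1.58) and 1.43-fold with OSM (1.35 to 1.52).

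Gata2, a zinc finger factor of trophoblast and blood progenitors, was at 1.85 and 1.43 TPM without cytokine, 1.48 and 1.11 TPM with LIF and 1.54 and 1.6 TPM with OSM. The -LIF libraries overlapped both of the other groups. In reads, it was 1.28-fold lower with LIF (1.02 to 1.61) and 1.05-fold lower with OSM (0.857 to 1.3), intervals of counting that leave out the spread between libraries. Gata2 was thus the 1 factor of the 6 whose -LIF libraries were not all above the rest. The share of all genes with both -LIF libraries on top is not given here.

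**Figure D1:**
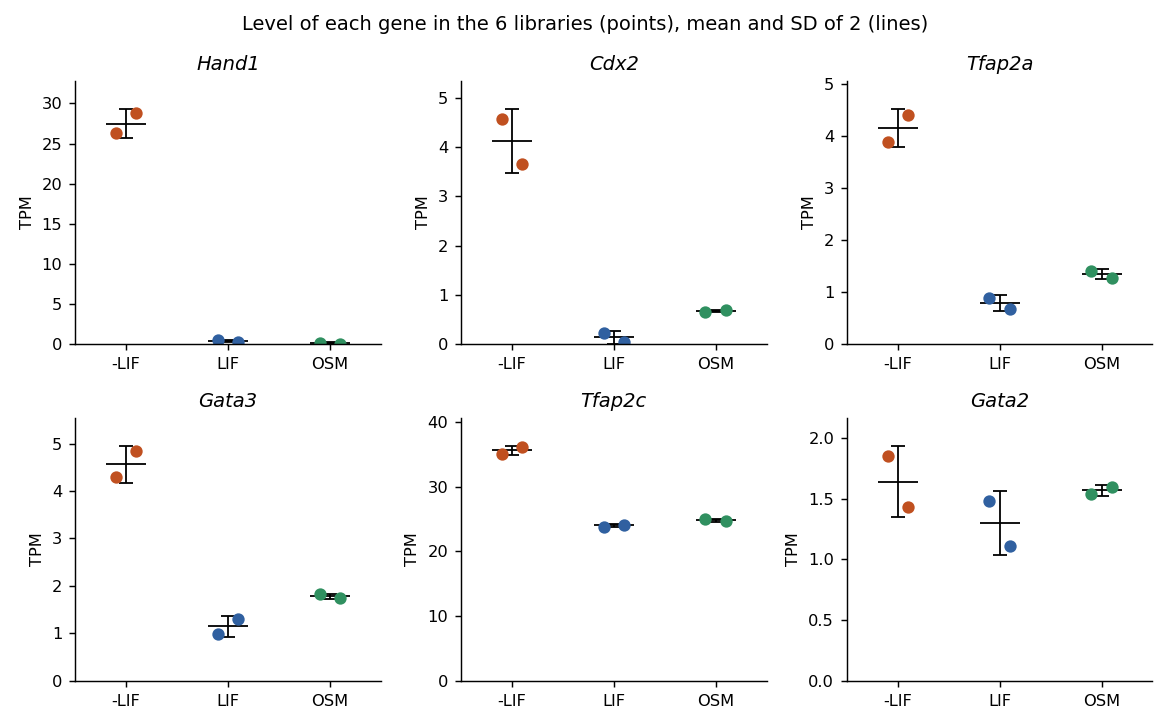
TPM of Hand1, Cdx2, Tfap2a, Gata3, Tfap2c and Gata2 (one panel each, linear axes that start at 0 and differ in range) in the 2 libraries of each group, with the mean and SD of the group. In 5 panels both -LIF points lie above the other 4, and in the Gata2 panel the -LIF points overlap those of both other groups.

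Since TPM is per length, the levels of the 6 genes can also be ordered within a group. In -LIF-ESCs the order of mean TPM was Tfap2c (35.6 ± 0.676, SD, n = 2), Hand1 (27.5 ± 1.78), Gata3 (4.56 ± 0.389), Tfap2a (4.15 ± 0.364), Cdx2 (4.12 ± 0.644) and Gata2 (1.64 ± 0.294). Gata3 and Tfap2a overlapped in their libraries, as did Tfap2a and Cdx2. In LIF-ESCs the order was Tfap2c (24.0 ± 0.205), Gata2 (1.30 ± 0.263), Gata3 (1.15 ± 0.225), Tfap2a (0.785 ± 0.151), Hand1 (0.407 ± 0.104) and Cdx2 (0.142 ± 0.132), and only Gata2 and Gata3 overlapped as neighbours. In OSM-ESCs it was Tfap2c (24.8 ± 0.243), Gata3 (1.78 ± 0.0534), Gata2 (1.57 ± 0.0448), Tfap2a (1.35 ± 0.0956), Cdx2 (0.675 ± 0.0256) and Hand1 (0.14 ± 0.0818), with no overlap between neighbours. Hand1 was therefore second in -LIF-ESCs and last in OSM-ESCs.

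Removal of LIF was the first comparison. The fold changes from here on are differences of log2(TPM + 1) from a limma fit of all 18556 genes, a scale that understates the change of low genes, and calls were made where the adjusted p was under 0.05 and the log2 fold change was 1 or more, up or down. Against -LIF-ESCs, 4 of the 6 factors were called lower in LIF-ESCs, where 8.09% of all genes tested were called lower and 13.3% higher. Of these 4, Hand1 and Cdx2 entered the test through the -LIF libraries alone, the group where they are high. The log2 fold change of Hand1 was -4.34 (95% interval -4.65 to -4.04, adjusted p = 8.58e-06). It was -2.16 for Cdx2 (-2.57 to -1.75, adjusted p = 0.000169), -1.53 for Tfap2a (-1.86 to -1.20, adjusted p = 0.000259) and -1.37 for Gata3 (-1.69 to -1.05, adjusted p = 0.000362). Tfap2c passed the limit on p but not the limit on size, at -0.55 (-0.66 to -0.45, adjusted p = 0.00018). By p alone 5 of the 6 were lower, against 25.9% of all genes. Gata2 was at -0.20, with an interval of -0.58 to 0.18 that spans 0 (adjusted p = 0.28).

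With OSM in place of LIF, 3 of the 6 factors were called lower than in -LIF-ESCs, where 7.86% of all genes were called lower and 14.2% higher. They were Hand1 at -4.65 (-4.95 to -4.34, adjusted p = 6.78e-06), Cdx2 at -1.61 (-2.02 to -1.19, adjusted p = 0.000506) and Tfap2a at -1.13 (-1.46 to -0.81, adjusted p = 0.000786). Here too, Hand1 and Cdx2 entered the test through the -LIF libraries alone. Gata3 fell just inside the limit on size, at -0.999 (-1.32 to -0.68, adjusted p = 0.00119). Without the first -LIF library its value was -1.07 and without the first OSM library -1.02, which are calls, and without the second -LIF library it was -0.93. Tfap2c was at -0.50 (-0.61 to -0.40, adjusted p = 0.00025). By p alone 5 of the 6 factors were lower, against 25.4% of all genes. Gata2 was at -0.03 (-0.42 to 0.35, adjusted p = 0.856) and took the other sign, 0.08, without the first -LIF library.

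Both comparisons share the -LIF libraries. With 2 libraries a group, permuting the libraries exactly gives no two-sided p under 0.333, so the fit supplies these p-values. Over all genes, the fold change had a log2 median of 0.165 with LIF and 0.182 with OSM, and 0.002 and 0.005 after rescaling by the median ratio, so the falls above are larger when read against the other genes. After that rescaling Gata3 was at -1.15 with OSM, which is a call. In bulk RNA, a smaller share of cells that express a factor and less of its RNA per cell cannot be told apart.

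**Figure D2:**
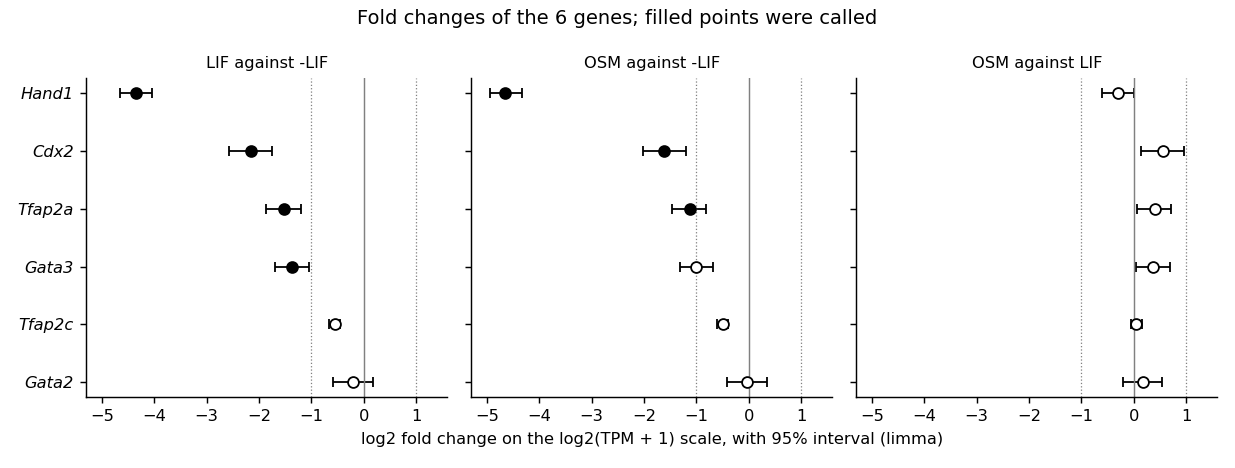
Log2 fold change of each factor on the log2(TPM + 1) scale (horizontal) with its 95% interval from limma, for LIF against -LIF, OSM against -LIF and OSM against LIF. Filled points were called, dotted lines mark the limit of 1 in either direction, and Gata3 lies on that line in OSM against -LIF.

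OSM-ESCs and LIF-ESCs were then compared directly. In limma 0 of the 6 factors were called, either with the limit on size, which 15 genes passed (0.0808% of those tested), or by adjusted p alone (0.593%). At an unadjusted p under 0.05, 3 of the 6 were higher in OSM-ESCs, against 9.80% of all genes. Cdx2 was higher by 0.56 on the log2 scale (0.14 to 0.97, unadjusted p = 0.0172, adjusted p = 0.218), Tfap2a by 0.40 (0.07 to 0.72, unadjusted p = 0.0259, adjusted p = 0.256) and Gata3 by 0.37 (0.05 to 0.69, unadjusted p = 0.0299, adjusted p = 0.27). None of these 3 was under an unadjusted 0.05 when either OSM library was left out, and with a LIF library left out Cdx2 was at an unadjusted p of 0.072 and Tfap2a at 0.104 (without the second) and Gata3 at 0.124 (without the first).

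In each of these 3 genes both OSM libraries were above both LIF libraries, as they also were for Tfap2c and Gata2. The share of all genes with this order is not given here. In reads, OSM-ESCs were 4.69-fold higher for Cdx2 (1.95 to 13.7), 1.70-fold for Tfap2a (1.27 to 2.29) and 1.55-fold for Gata3 (1.18 to 2.04). The Cdx2 ratio was 13.8 without the first LIF library and 2.87 without the second. Hand1 went the other way, with both OSM libraries under both LIF libraries, a log2 difference of -0.30 (-0.606 to 0.000667, adjusted p = 0.327) and 3.02-fold fewer reads in OSM-ESCs (1.11 to 9.5), or 4.94-fold without the first OSM library. Tfap2c differed by 0.05 (-0.06 to 0.16, adjusted p = 0.647) and Gata2 by 0.17 (-0.21 to 0.55, adjusted p = 0.66). The intervals do not exclude differences of up to 0.97 for Cdx2 and 0.72 for Tfap2a, and for Tfap2c none beyond 0.16.

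Other genes of trophoblast were taken as a list of 27, of which 21 had a row and 17 were tested. The counts of this list and those below stand against the shares over all genes tested. With LIF these shares were 8.09% called lower and 13.3% higher, and with OSM 7.86% and 14.2%. In LIF-ESCs 11 of the 17 were called lower than in -LIF-ESCs and 1 higher, with a median log2 fold change of -1.21, and in OSM-ESCs 10 were called lower and 1 higher, with a median of -1.29. The lowest were the simple-epithelium keratins Krt8 and Krt18 and the placental retrotransposon-derived gene Peg10. Krt8 was at 994 and 970 TPM without cytokine, 12.6 and 12.9 TPM with LIF and 20.8 and 15.8 TPM with OSM. Its partner Krt18 was at 755 and 776 TPM, 19.9 and 18.1 TPM, and 23.8 and 23.5 TPM in that order, and Peg10 fell from 670 and 698 TPM to between 50.9 and 54.3 TPM in the other 4 libraries. These 3 genes make up most of the list's summed level in -LIF-ESCs. That sum was 2610 to 2650 TPM in -LIF-ESCs, 215 to 221 TPM in LIF-ESCs and 216 to 224 TPM in OSM-ESCs.

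The T-box factor Eomes, which acts beside Cdx2 in trophoblast stem cells and also marks mesendoderm, was at 6.84 and 6.21 TPM, 1.80 and 2.21 TPM, and 1.57 and 1.39 TPM. Its log2 fold change was -1.33 with LIF (adjusted p = 0.000334) and -1.6 with OSM (adjusted p = 0.000165). Tead4, upstream of Cdx2, was higher with both cytokines, at 7.73 and 8.39 TPM, 14.5 and 13.8 TPM, and 9.85 and 9.85 TPM (log2 fold change 0.74 and 0.26, neither past the limit on size). The 1 gene of the list called higher was Fgfr2, the receptor for the FGF4 that trophoblast stem cells depend on, at 6.88 and 7.18 TPM without cytokine and between 19.8 and 21.6 TPM with either. Genes of the placenta differed widely in level. Gcm1, Syna, Prl2c2 and Cyp11a1, which mark or act in syncytiotrophoblast, giant cells and steroid synthesis, stayed between 0 and 1.24 TPM in every library and were not tested. The imprinted gene Phlda2 was at 59.6 and 67.3 TPM without cytokine and between 50.9 and 55.4 TPM with either, and the homeobox gene Esx1 was at 20.4 and 20 TPM, 2.9 and 3.29 TPM, and 2.14 and 1.7 TPM. Eomes, Tead4, Gcm1, Syna, Prl2c2, Cyp11a1, Phlda2 and Esx1 are named here for their roles and were chosen after their values were seen.

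Genes of surface ectoderm were a list of 18, of which 17 had a row and 13 were tested. With LIF 4 were called lower and 1 higher, with a median of -0.39, and with OSM 5 were called lower and 1 higher, with a median of -0.38. By adjusted p alone 7 of the 13 were lower and 3 higher with LIF, and 7 lower and 4 higher with OSM. Over all genes, 25.9% were lower and 42.2% higher by p alone with LIF, and 25.4% and 42.9% with OSM. The lowest of the list were Wnt6, a ligand of ectoderm, Dlx3, a homeodomain factor of epidermis and placenta, and Krt14, a basal keratin. Wnt6 was at 16.2 and 12.9 TPM in -LIF-ESCs and between 0.389 and 0.602 TPM in the other libraries, and in reads it was 37.1-fold lower with LIF (22.7 to 65.3) and 24.7-fold lower with OSM (17.0 to 37.2). Dlx3 was at 7.56 and 8.37 TPM against 0.164 to 0.456 TPM, and Krt14 at 4.57 and 4.10 TPM against 0.0563 to 0.141 TPM. Grhl1, a grainyhead factor of epithelia, was called higher, at 2.74 and 2.56 TPM without cytokine and 8.56 to 9.51 TPM with either.

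Krt15, another basal keratin, was at 1.2 and 0.791 TPM in -LIF-ESCs and at most 0.187 TPM in the other libraries. Krt15, Trp63 and Krt5 were not tested. Krt17, a keratin of the same list, was at 9.05 and 8.52 TPM without cytokine and between 7.23 and 8.25 TPM with either. In limma its adjusted p was 0.249 with LIF and 0.0804 with OSM. Trp63, the p63 factor of stratified epidermis, was at 0.137 and 0.102 TPM in -LIF-ESCs, from 13 and 8 reads, and its partner in basal cells, Krt5, at 0.241 and 0.0489 TPM, from 6 reads and 1 read, and Trp63 and Krt5 had 0 reads in the other 4 libraries. Of the genes tested, 2 of 17 in the trophoblast list and 3 of 13 in the surface ectoderm list reached 1 TPM in -LIF libraries alone, and so entered the test through the group where they are high.

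The nearest relatives of the factors did not follow one direction. Of 12 paralogs, 9 had a row and 6 were tested, and in both comparisons 4 were called higher and 1 lower than in -LIF-ESCs, with a median of 1.31 with LIF and 1.34 with OSM. Of the 6, Gata6 and Hand2 reached 1 TPM in cytokine libraries alone and Tfap2e in -LIF libraries alone. Tfap2e was lower inside the limit on size, at -0.49 with LIF and -0.61 with OSM (adjusted p = 0.0265 and 0.0115). Gata1, Cdx4 and Gata5 were not tested. Gata1 was at 0.797 and 0.837 TPM in -LIF-ESCs and at most 0.338 TPM in the other libraries, and Cdx4 at 0.945 and 1.53 TPM against at most 0.714 TPM. Cdx1, the caudal-type relative of Cdx2 in the posterior embryo, was at 2.47 and 2.39 TPM without cytokine, 9.32 and 10.6 TPM with LIF and 13.0 and 12.9 TPM with OSM. Its log2 fold change was 1.67 with LIF (adjusted p = 4.14e-05) and 2.02 with OSM (adjusted p = 2.27e-05), where Cdx2 fell.

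Hand2, the relative of Hand1 in heart and limb, had 0 reads and 1 read in -LIF-ESCs, 36 and 28 with LIF and 45 and 51 with OSM, or 0 and 0.0457 TPM, 1.63 and 1.32 TPM, and 1.89 and 1.79 TPM. In reads it was 71.7-fold higher with LIF (12.4 to 2880) and 89.1-fold higher with OSM (15.6 to 3550), in the direction opposite to Hand1 and with no overlap of libraries. Without the first -LIF library these ratios were 32.4 and 40.2, and without the second the -LIF group has 0 reads. Gata4, a factor of endoderm and heart, was at 0.679 and 1.18 TPM, 6.44 and 7.01 TPM, and 4.94 and 4.48 TPM, a log2 fold change of 2.01 with LIF (adjusted p = 0.000169) and 1.58 with OSM (adjusted p = 0.000414). Gata6 of the primitive endoderm was called higher as well. Elf3, an epithelial relative of Elf5, fell as Cdx2 and Hand1 did, from 92.6 and 86.6 TPM to 16.2 and 13.2 TPM with LIF and 15 and 14.2 TPM with OSM (log2 fold change -2.53 and -2.54, adjusted p = 2.25e-05 and 2.11e-05).

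**Figure D3:**
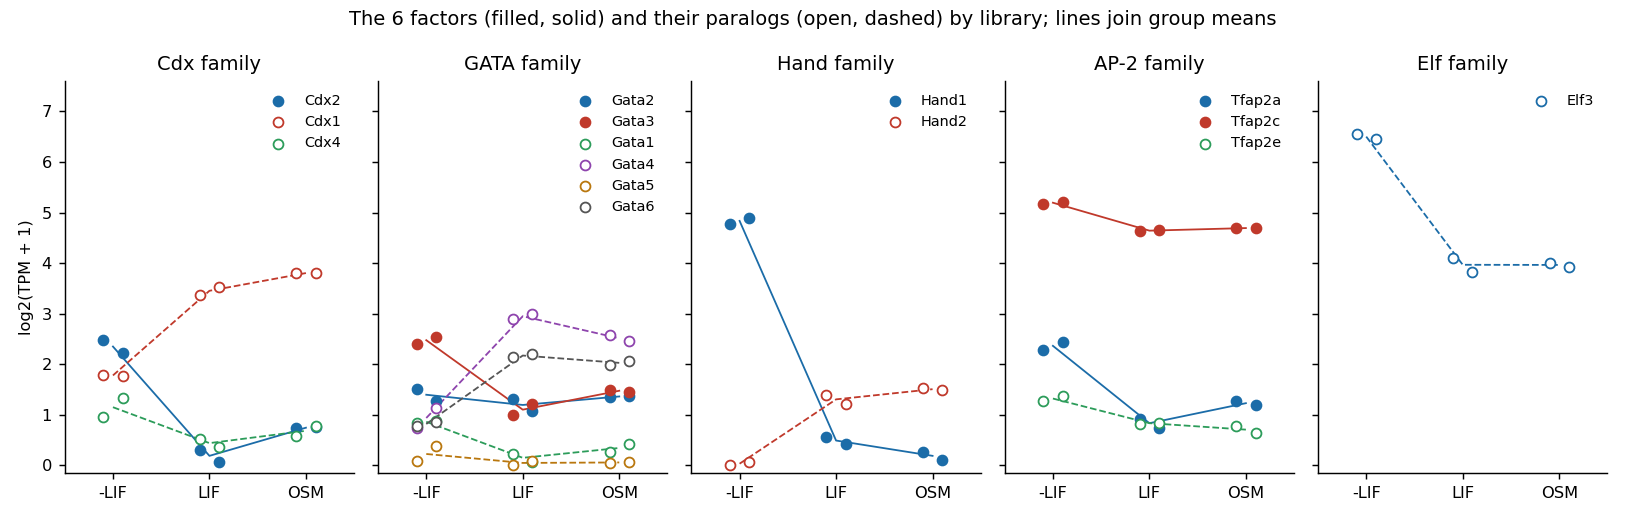
Log2(TPM + 1) of the 6 factors (filled points, solid lines) and of their paralogs with a row (open points, dashed lines) in each library, by gene family, with lines that join the group means. Cdx2 and Cdx1, Hand1 and Hand2, and Gata3 and Gata4 or Gata6 cross between -LIF and the cytokine groups, while Elf3 falls.

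The other tissues in which these factors act were read from lists as well. Of 9 mesoderm genes tested, 5 were called lower and 1 higher with LIF and 4 lower and 2 higher with OSM, with medians of -1.22 and -0.86. Of the 9, 3 reached 1 TPM in -LIF libraries alone and 2 in cytokine libraries alone. T (brachyury), the T-box factor of the primitive streak, was at 61.9 and 59.4 TPM without cytokine and between 0.506 and 1.05 TPM in the other libraries. Msx2, a homeodomain factor downstream of Bmp signals, was at 7.06 and 8.26 TPM, 1.30 and 1.45 TPM, and 2.17 and 2.54 TPM. Mesp1 of early mesoderm was called lower on few reads, 22 and 19 without cytokine, 0 and 1 with LIF and 4 and 1 with OSM, and without the second OSM library its log2 fold change with OSM was -0.97 in place of -1.12, inside the limit.

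Of 8 germ cell genes tested, 4 were called lower in each comparison and 0 higher, with a median of -0.59 in both. The lowest were Dazl, Dnd1, both RNA-binding proteins of germ cells, and Dppa3 (Stella). Dazl was at 13.0 and 13.1 TPM without cytokine, 3.19 and 3.43 TPM with LIF and 2.12 and 2.89 TPM with OSM, and Dppa3 was at 101 and 108 TPM, 36.6 and 40.8 TPM, and 44.1 and 39.2 TPM. Dnd1 was at 28.6 and 30.5 TPM against 7.22 to 9.61 TPM in the other 4 libraries. Of 4 neural crest genes tested, Snai2 and Foxd3 were called higher and Sox10 lower in both comparisons, with medians of 0.77 and 1.00. Sox10 reached 1 TPM in -LIF libraries alone. Foxd3, which also works in naive pluripotency, was at 4.52 and 5.23 TPM without cytokine and 20.9 to 23.9 TPM with either.

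Of 4 endothelial and blood genes tested, limma called 0 in either comparison with the limit on size, with medians of 0.68 and 0.47. Of the 4, 2 reached 1 TPM in cytokine libraries alone. By adjusted p alone, as by unadjusted p, 3 of the 4 (Pecam1, Tal1 and Runx1) were higher with each cytokine, where 42.2% of all genes were higher by adjusted p with LIF and 42.9% with OSM. With a pseudocount of 0.1 or with voom 2 were called higher in each comparison, and with OSM 1 was called without the second -LIF library or the first OSM library. Of 7 primitive endoderm genes tested, 5 were called higher with LIF and 4 with OSM, and 0 lower, with medians of 1.65 and 1.21. Of these 7, 5 reached 1 TPM in cytokine libraries alone, and so entered the test through the groups where they are high. Sox7 was at 0.0535 and 0.0977 TPM without cytokine, 4.20 and 4.10 TPM with LIF and 1.83 and 2.05 TPM with OSM. Pdgfra, which fibroblasts also express, was at 0.864 and 0.879 TPM against 4.67 to 5.57 TPM. Gata4 and Gata6 stand in both this list and that of the paralogs, and Hand2 in both the mesoderm and the paralog lists. In OSM against LIF the 1 gene called among all lists was Cubn, an endocytic receptor of visceral endoderm, with a log2 fold change of -1.29 with OSM (adjusted p = 0.0471), a call that was lost whichever library was left out.

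Pluripotency and fibroblast genes, which bear on the make-up of the cultures, moved in the other direction. Of 9 pluripotency genes, 6 were called higher in each comparison and 0 lower, with medians of 1.43 with LIF and 1.19 with OSM. Nr0b1 was at 20.1 and 20.3 TPM without cytokine, 316 and 315 TPM with LIF and 255 and 263 TPM with OSM, Klf4 at 51.2 and 49.7 TPM, 361 and 357 TPM, and 325 and 326 TPM, and Tfcp2l1 at 30 and 29.4 TPM against 100 to 109 TPM. Nanog went the other way, at 436 and 431 TPM without cytokine and 252 to 291 TPM with either (log2 fold change -0.58 with LIF and -0.73 with OSM, adjusted p = 0.000144 and 6.37e-05). Of 10 fibroblast genes, which MEF feeders would express, 9 were called higher in each comparison, with medians of 2.71 and 3.13. Of the 10, 4 reached 1 TPM in cytokine libraries alone. The summed level of the 10 was 43.8 to 49.9 TPM in -LIF-ESCs, 256 to 262 TPM in LIF-ESCs and 367 to 371 TPM in OSM-ESCs.

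Col3a1 was at 0.477 and 0.449 TPM without cytokine, 17.0 and 16.2 TPM with LIF and 23.0 and 21.5 TPM with OSM, and Dcn and Postn, a proteoglycan and a matrix protein of fibroblasts, were between 0.0368 and 0.355 TPM without cytokine and between 10.1 and 14.1 TPM with either. The fibroblast genes thus moved with the groups in the direction of Hand2, Snai2, Gata4 and Pdgfra and against that of Cdx2, Hand1, Gata3 and Tfap2a. Their part in the values of any of these genes was not tested.

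**Figure D4:**
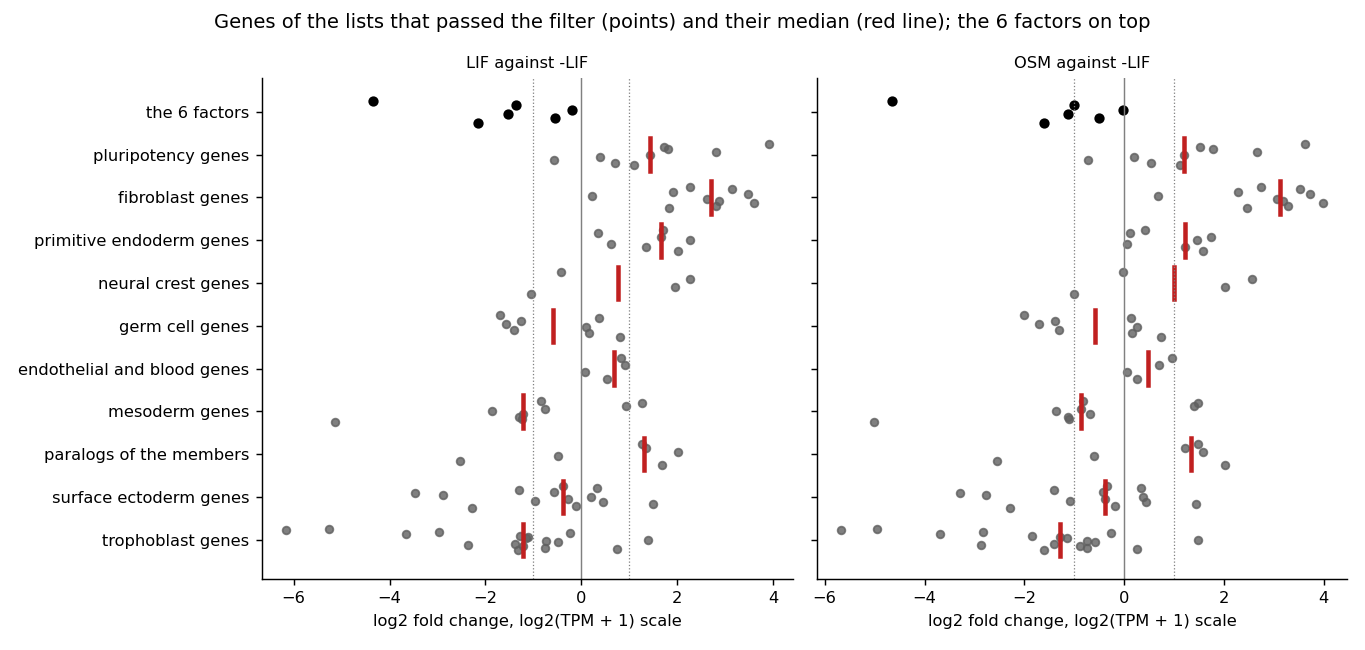
Log2 fold change on the log2(TPM + 1) scale (horizontal) of each tested gene of the 10 lists (grey points, red line at the median) and of the 6 factors (black points), for LIF against -LIF and OSM against -LIF. The fibroblast, primitive endoderm and pluripotency medians lie above 0 and the trophoblast, mesoderm, germ cell and surface ectoderm medians below it in both panels.

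For each factor, the genes with the nearest log2(TPM + 1) profile over the 6 libraries were taken, by Euclidean distance after centring. Their likeness to the factor across the groups therefore follows from the choice. Nearest to Hand1 were Fmr1nb (distance 0.35), Hspb2 (0.44) and Xlr3a (0.45), with mean levels of 71.4, 64.5 and 19.1 TPM in -LIF-ESCs against at most 3.08 TPM in the other groups. Nearest to Cdx2 were Cryab (0.26), Dusp10 (0.28) and Flnc (0.30). Like Cdx2 itself, these 3 were lowest in LIF-ESCs. Cryab had means of 74.4, 15.8 and 24.3 TPM in -LIF-ESCs, LIF-ESCs and OSM-ESCs. Cdx2 had 4.12, 0.142 and 0.675 TPM, which are larger folds. Tfap2a lay nearest to Flt1 (0.10), the VEGF receptor that trophoblast also expresses, S100a10 (0.15) and Evx1 (0.18), and Gata3 to Irf2 (0.08), Anxa3 (0.14) and Il17rc (0.14). Flt1 was at a mean of 8.52, 2.37 and 3.54 TPM and Irf2 at 4.57, 1.1 and 1.86 TPM in the same order of groups. Tfap2c lay nearest to Zc3h18 (0.03), Klhl25 (0.05) and B3gat2 (0.05) and Gata2 to Kdelc2 (0.11), Urgcp (0.13) and B9d1 (0.14). The distances describe 6 libraries in 3 groups, where many genes share a profile. Because log2(TPM + 1) understates the change of low genes, genes with near profiles can differ in fold.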

How the data were processed

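RNA-seq of 6 mESC libraries, 2 each from -LIF, LIF and OSM medium, was analysed. The submitters' processing notes name Trimmomatic, HISAT2, featureCounts and mm10, and the authors deposited 1 table of TPM values. The annotation, strand setting and handling of reads with several matches are not given in the sources used here, and the authors' DESeq2 test of counts was not repeated. The deposited TPM values give no depth. Reads were recovered from TPM and GENCODE M21 exon lengths, which gave whole numbers, to within 0.02 reads, for 95.4% of values and for the 6 factors in all libraries. Such reads came to between 20712939 and 28994417 per library. Of the symbols, 99.4% were found once in M21.

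Log2(TPM + 1) was fitted with limma 3.58.1 in R 4.3.3 (lmFit, eBayes with a trend) over the 3 groups, for the 18556 genes that reached 1 TPM in 2 or more libraries. The fit had 3 residual degrees of freedom (5.3 after moderation), and the residual SD had a median of 0.086. P-values were two-sided and adjusted by the Benjamini-Hochberg method. Exact 95% binomial intervals of read ratios were computed with scipy 1.17.1. The fit was also run on simulated reads, with changes set only in genes with many expected reads. That run does not bear on calls that rest on few reads. Alternative settings were 0.1 as pseudocount, a filter of 5 TPM or none, no trend in eBayes, voom on recovered reads, rescaling of libraries by the median ratio, a fit of the compared groups alone, the replicate number as block, calls by adjusted p alone and each library left out.

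The factors and the lists (trophoblast, surface ectoderm, paralogs, mesoderm, endothelial and blood, germ cell, neural crest, primitive endoderm, fibroblast and pluripotency genes) were chosen with earlier results of these data known. Named from each list were the up to 3 genes with the highest and the up to 3 with the lowest mean fold change among those called in both comparisons with -LIF-ESCs without overlap of libraries, any gene called between the cytokines, and for each factor the 3 genes nearest in profile, apart from gene models named only by number. Exceptions named for their roles are Eomes, Tead4, Gcm1, Syna, Prl2c2, Cyp11a1, Phlda2, Esx1, Trp63, Krt5, Krt15, Krt17, Pecam1, Tal1, Runx1, Gata6, Gata1, Gata5, Cdx4, Tfap2e, Nanog and Pou5f1, and the genes that overlap factors. Promoter sequences came from RefSeq on GRCm38.p6.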

Additional observations from a re-analysis of the deposited data

How the results depend on the processing

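With LIF, Hand1, Cdx2, Tfap2a and Gata3 kept their call in every alternative in which they were tested, and so did Hand1, Cdx2 and Tfap2a with OSM. A filter of 5 TPM leaves Tfap2c and Hand1 as the factors tested, so 1 was called in each comparison with -LIF-ESCs. With no limit on the fold change, 5 were called with OSM. Gata3 with OSM was called in 6 of 14 alternatives, with log2 fold changes from -1.48 (voom) to -0.93. Gata2 with OSM ranged from -0.15 to 0.08 over the libraries left out, and was at 0.08 without the first -LIF library. Tfap2c was called only where no limit was set on the fold change, at -0.55 and -0.50. In OSM against LIF no alternative called a factor, and Cdx2 came nearest in voom, where its adjusted p rounded to 0.05 and was not under it. Library numbers did not pair the samples (correlations of deviations between -0.0433 and 0.0265 over 18556 genes), and the replicate block left 4, 3 and 0 factors called in LIF against -LIF, OSM against -LIF and OSM against LIF, as without it. Few reads limit Cdx2 with LIF and Hand1 with either cytokine, and their counting intervals leave out the spread between libraries. Leaving out libraries for the read ratios was chosen after seeing the data.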
